A study of Homo sapiens with 26 samples.

Results

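The genes described here are 40 genes of mitosis and the spindle, chosen by symbol, out of 19128 genes in the tables of a POU2F3 knockout experiment and 19117 in a table of parental lines. All 40 were found in every table, and all 40 passed the filter on low values in both comparisons. Libraries of polyA RNA were sequenced from established human lines of small cell lung cancer. In the knockout experiment, the lines NCI-H526, COR-L311, NCI-H211 and NCI-H1048 were infected by lentivirus with either of 2 guides against POU2F3 (sgPOU2F3) or with 1 control guide (sgNeg). NCI-H1048 and NCI-H211 were harvested on day 4 after infection, and COR-L311 and NCI-H526 on day 5. Both arms of a line thus carried the lentivirus and shared a harvest day, and day and line cannot be told apart. NCI-H1048 was grown in HITES medium, and medium and line cannot be told apart there either. The parental set held 1 library of exponentially growing cells for each of 14 lines: the 4 knockout lines and DMS114, DMS79, NCI-H128, NCI-H146, NCI-H446, NCI-H510, NCI-H524, NCI-H69, NCI-H82 and NCI-H889.

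Cells enter mitosis when CDK1, bound to A- and B-type cyclins, becomes active, and Aurora and Polo-like kinases then build the spindle and attach chromosomes to it. The spindle checkpoint holds back the anaphase-promoting complex, a ubiquitin ligase, until all kinetochores are attached, and the ligase then marks securin and B-type cyclins for destruction. RNA of most of these genes accumulates in G2 and mitosis, through promoters that carry CCAAT boxes and a cell cycle homology region bound by the MuvB complexes with B-MYB, FOXM1 or the DREAM proteins. Small cell lung cancer is a fast-growing cancer in which these genes are commonly abundant. POU2F3 is the transcription factor of tuft cells, chemosensory cells of the epithelium, and of one variant of this cancer.

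The deposited value is FPKM, the fragments of a transcript scaled to its length and to the mapped fragments of the library. Each knockout table holds 1 column for sgNeg and 1 for sgPOU2F3, which stands for both guides together, and how they were combined is not given in the sources used here, so a value within a line has no error of its own. Depth is not stated; a rough estimate from the smallest steps between values, of which 33 to 50.2% lay within 0.1 of a whole fragment, was 17.5 to 29.8 M fragments in the sgPOU2F3 columns, 9.3 to 15.1 M in the sgNeg columns and 9.6 to 31.4 M in the parental columns. Among the 40 genes, CDC25C in COR-L311 had the fewest estimated fragments in an sgNeg column, 141, for a counting error of 8.43%. POU2F3 itself stood at 218, 60.8, 21.3 and 204 FPKM in sgPOU2F3 cells of COR-L311 and NCI-H1048, then NCI-H211 and NCI-H526, against 272, 198, 307 and 501 FPKM in sgNeg cells, or 80.4%, 30.7%, 6.95% and 40.7% of the control. These are RNA levels; a guide can change the coding sequence while the RNA persists, and POU2F3 protein was not analysed here. In the parental table POU2F3 ranged over 188.6 to 387 FPKM among the knockout lines and reached at most 0.608 FPKM among the 10 others. Fibroblast markers (6 genes) summed to 0.835 to 16.3 FPKM in the sgPOU2F3 columns and 0.129 to 8.43 FPKM in the sgNeg columns. In NCI-H211, LUM stood at 12.3 FPKM in sgPOU2F3 and 0.10 FPKM in sgNeg cells, while DCN stood at 0.537 and 7.26 FPKM. The 8 immune cell markers summed to 2.46 to 8.94 FPKM in sgPOU2F3 and 2.12 to 10.8 FPKM in sgNeg. Among them CD3D and MS4A1 were at 0 in all 8 columns. LYZ stood at 6.04 FPKM in sgPOU2F3 and 0.51 FPKM in sgNeg cells of NCI-H211. CD68 was higher in sgPOU2F3 cells in every line, and CD14 was lower in COR-L311 and NCI-H211 and higher in the other lines.

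Throughout, per-line values are given in 1 order: COR-L311 and NCI-H1048, then NCI-H211 and lastly NCI-H526. A ratio is log2 of (FPKM + 1) in sgPOU2F3 over sgNeg, so a negative ratio means a lower level in sgPOU2F3 cells.

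Promoters of this gene class are known for shared elements, and the sequence before the start site is shown for a few of the 40. RefSeq promoters (build GRCh38.p14, 250 bases before to 50 after each start) were given for 34 of the 40 genes, 5 of them with several starts. The hexamer TTTGAA, the common form of the cell cycle homology region, was present on either strand in 25 of the 34 genes, against 18.2% of the 27305 genes in the promoter table. CCAAT was present on either strand in 28 of the 34, against 39.7% of all genes. Both stood in the same promoter in 21 of the 34, against 7.26% of all genes, and neither in 2, CENPE and KIF2C, against 50.5%. The other form searched, TTCGAA, was in 3 of the 34 (1.82% of all genes), and each of 3 E2F sites was in 1 of the 34. These were TTTGCGC, found in 2.37% of all genes, TTTCCCGC, found in 1.98% of them, and TTTGGCGC, found in 0.795%. A match is a run of letters and not evidence of binding.

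The 5 genes with an entry and the smallest p in the knockout comparison are shown, then CCNB2 and PLK1 for their arrays of both elements and CDC25B for its ratio near 0, each as the 150 bases before the start, 5′ to 3′. For genes with several starts, the stretch with the most matches was taken. Capitals mark either hexamer, the CCAAT box or an E2F site, on either strand.
PTTG1: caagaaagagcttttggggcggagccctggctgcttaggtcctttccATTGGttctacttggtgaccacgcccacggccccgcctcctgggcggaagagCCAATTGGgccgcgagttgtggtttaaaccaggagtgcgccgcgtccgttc
BUB1: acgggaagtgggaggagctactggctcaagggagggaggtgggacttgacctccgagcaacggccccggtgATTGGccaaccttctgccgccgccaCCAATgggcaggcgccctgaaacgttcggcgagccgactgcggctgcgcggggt
CCNA2: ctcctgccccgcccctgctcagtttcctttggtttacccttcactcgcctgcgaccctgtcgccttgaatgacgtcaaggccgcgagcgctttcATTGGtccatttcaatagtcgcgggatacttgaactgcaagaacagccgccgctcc
AURKB: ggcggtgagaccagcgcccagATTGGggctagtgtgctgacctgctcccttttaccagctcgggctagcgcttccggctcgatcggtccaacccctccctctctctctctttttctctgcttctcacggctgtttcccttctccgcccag
CENPA: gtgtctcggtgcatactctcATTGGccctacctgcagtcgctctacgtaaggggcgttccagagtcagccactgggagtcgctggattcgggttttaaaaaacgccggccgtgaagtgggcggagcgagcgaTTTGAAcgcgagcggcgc
CCNB2: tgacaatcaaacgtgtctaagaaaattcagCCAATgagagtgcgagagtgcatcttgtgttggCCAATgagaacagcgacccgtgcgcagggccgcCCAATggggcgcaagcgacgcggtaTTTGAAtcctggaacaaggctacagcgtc
PLK1: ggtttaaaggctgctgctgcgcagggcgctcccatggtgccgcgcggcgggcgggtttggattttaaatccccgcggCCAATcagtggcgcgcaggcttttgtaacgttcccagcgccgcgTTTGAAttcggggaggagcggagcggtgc
CDC25B: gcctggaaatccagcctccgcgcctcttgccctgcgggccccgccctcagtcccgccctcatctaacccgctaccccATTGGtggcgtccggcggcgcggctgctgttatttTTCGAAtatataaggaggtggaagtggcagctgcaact

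These stretches lie at chr5:160421705-160421854 (plus strand) for PTTG1, chr2:110678064-110678213 (minus strand) for BUB1, chr4:121823884-121824033 (minus strand) for CCNA2, chr17:8210250-8210399 (minus strand) for AURKB, chr2:26785906-26786055 (plus strand) for CENPA, chr15:59104996-59105145 (plus strand) for CCNB2, chr16:23678739-23678888 (plus strand) for PLK1 and chr20:3796160-3796309 (plus strand) for CDC25B. CCNB2 held 3 CCAAT boxes, starting 120, 87 and 54 bases before the start site, followed by TTTGAA at 29 bases before it. PLK1 held CCAAT at 73 and TTTGAA at 29 bases before the start. CENPA held a reversed CCAAT at 130 and TTTGAA at 18 bases before the start. In BUB1 a TTCGAA began at base 2 of the transcript, outside the printed stretch. PTTG1, CCNA2 and AURKB held CCAAT letters without either hexamer in the printed window, and CDC25B held a reversed CCAAT and TTCGAA. The 25 genes with TTTGAA had a median log2 ratio after knockout of -0.48, and the 9 without it one of -0.62. The 9 include BUB1 and CDC25B, which hold TTCGAA, and further variants of the region were not searched. The difference between the groups was not tested.

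The first comparison asked what became of these genes after POU2F3 knockout. The level was lower in sgPOU2F3 cells in all 4 lines for 34 of the 40 genes and in 3 of 4 lines for the other 6. No gene was higher in 4 of 4 lines. Among all 12387 tested genes, 12.9% were lower in 4 of 4 lines and 9.81% higher. The median of the 40 mean log2 ratios was -0.52, beside -0.02 for all tested genes, and the means ran from -0.90 for PTTG1 to -0.02 for CDC25B. In bulk samples, fewer cells in mitosis and less of each RNA per cell cannot be told apart.

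None of the 40 passed the threshold, an adjusted p of 0.05 over all tested genes in limma with line and arm as terms. The adjusted p of the 34 genes at an unadjusted p under 0.05, all of them lower, lay between 0.31 and 0.42. Of all tested genes, 7.08% were lower and 4.67% higher at that unadjusted p, and 0% were lower and 0.0161% (2 genes) higher past the threshold. Only 4 lines enter the test, and the spread between lines is part of its error. For 1 gene, CENPA, all 4 sgPOU2F3 levels lay below all 4 sgNeg levels, against 0.226% of all tested genes.

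**Figure D1:**
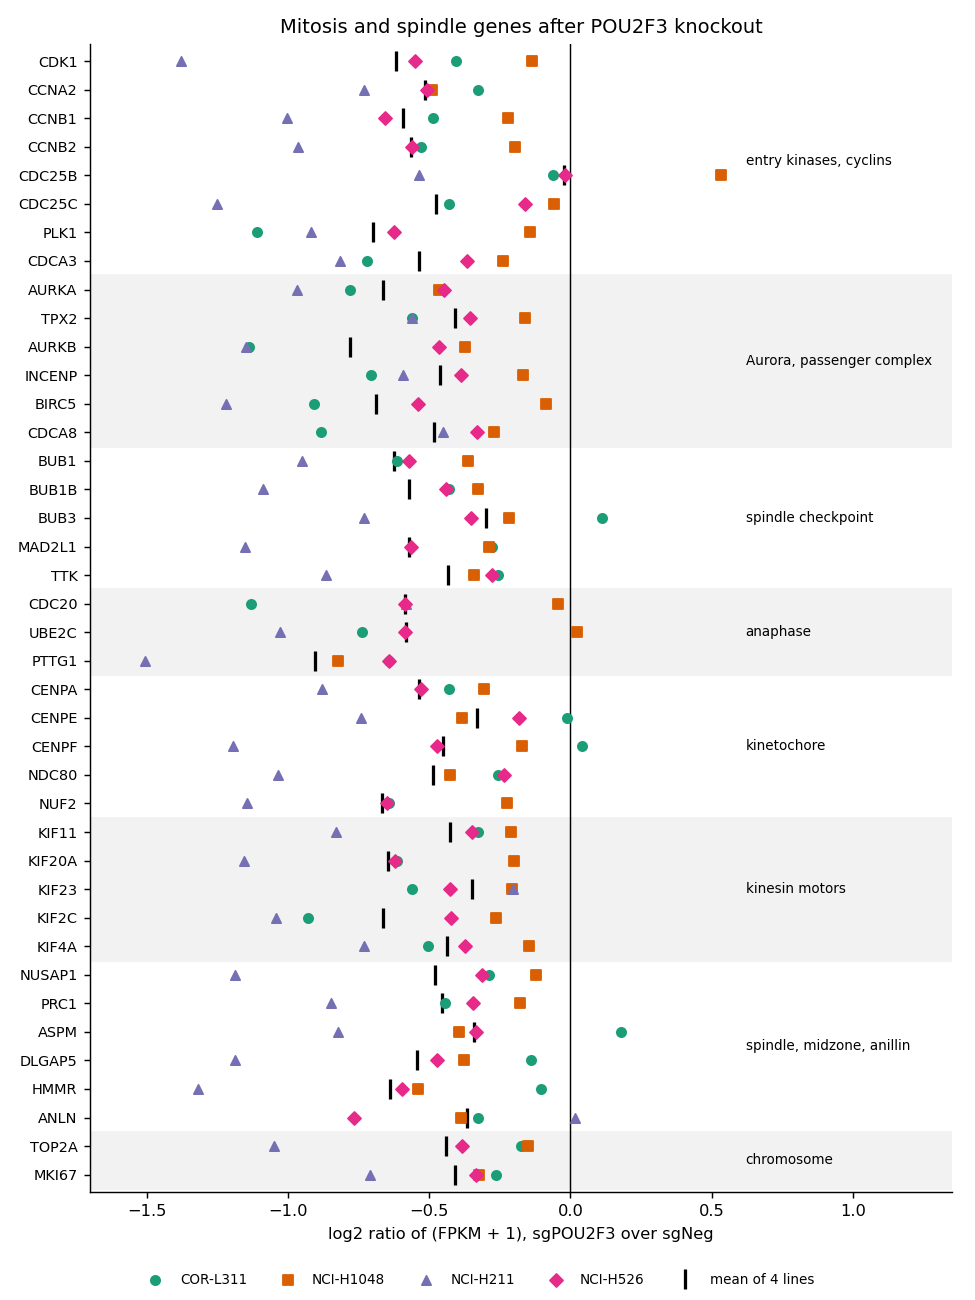
Log2 ratio of (FPKM + 1), sgPOU2F3 over sgNeg, on the horizontal axis for each of the 40 genes on the vertical axis, grouped by role in shaded bands; each symbol is 1 line and the black bar is the mean of the 4 lines. Nearly all symbols lie left of 0, NCI-H211 lies farthest left for 34 of the 40 genes, and CDC25B in NCI-H1048 stands at 0.53.

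The size of the difference varied by line. Leaving out NCI-H211 moved the mean ratio of 13 of the 40 genes by over 1.5 times, and leaving out COR-L311 moved 2, NCI-H1048 1 and NCI-H526 1. CDC25B, whose mean of -0.02 makes small shifts count, is in the first 3 of these counts. They were not made over all tested genes. NCI-H211 had a median ratio of -0.96 over the 40 genes, with 39 below 0 (53.4% of all tested genes), and its ratio was the lowest of the 4 lines for 34 genes. How often NCI-H211 was the lowest over all tested genes was not counted. In that line 34 genes were at least 1.5-fold lower and 18 at least 2-fold lower, against 11.7% and 4.26% of all tested genes. COR-L311 had a median of -0.44, with 37 genes below 0 (51.6% of all genes), 14 at least 1.5-fold lower (10%) and 3 at least 2-fold lower (1.92%). In NCI-H526 the median was -0.44, all 40 genes were below 0 (53.4% of all genes), 9 were at least 1.5-fold lower (2.49% of all genes) and none at least 2-fold lower (0.388%). With quantile normalization the 9 became 2 of 40, beside 3.13% of all genes. NCI-H1048 had the median nearest to 0, -0.22, with 38 genes below 0 (50.4% of all genes), 1 at least 1.5-fold lower (2.47% of all genes) and none at least 2-fold lower (0.783%). None of the 40 was at least 1.5-fold higher in any line, while 8.88%, 2.66%, 10.1% and 3.93% of all tested genes were, and 2.81%, 0.767%, 4.87% and 1.39% were at least 2-fold higher.

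The share of control POU2F3 RNA that remained and the size of the difference did not fall in the same order. NCI-H211, with 6.95% of the control level, had the lowest median ratio. NCI-H1048, with 30.7%, had the median nearest to 0, and COR-L311, with 80.4% remaining, had a median close to that of NCI-H526, with 40.7%. The summed level of the 40 genes was 2061, 2392, 1029 and 2227 FPKM in sgPOU2F3 cells, against 2806, 2833, 2009.7 and 3063 FPKM in sgNeg cells. Among the sgNeg cells NCI-H211 had the lowest sum and NCI-H526 the highest.

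**Figure D2:**
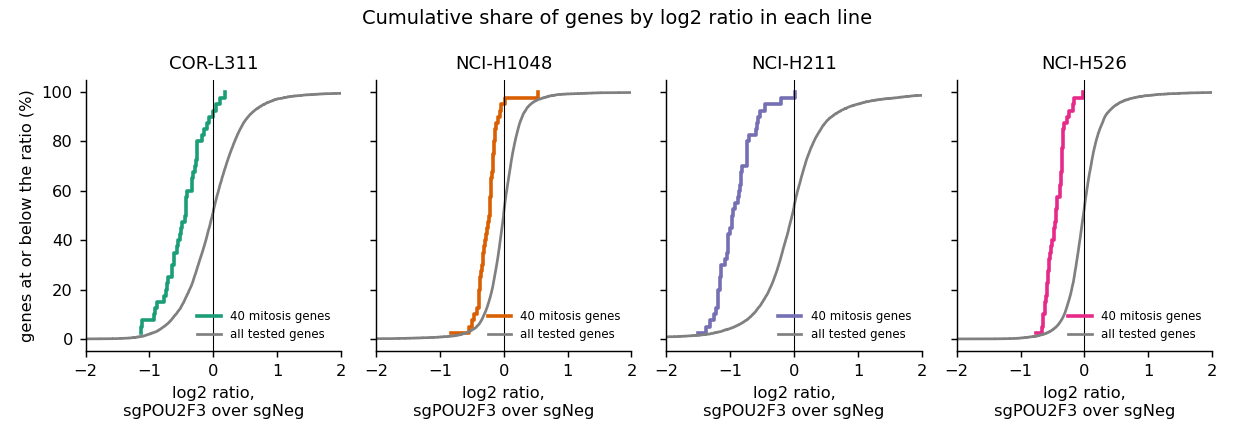
Cumulative share of genes in percent against the log2 ratio, sgPOU2F3 over sgNeg, in 1 panel per line; the coloured step line is the 40 mitosis genes and the grey line all 12387 tested genes. The coloured line lies left of the grey one in each panel, most in NCI-H211 and least in NCI-H1048.

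Of the genes of mitotic entry (8 genes, median ratio -0.55), 7 were lower in 4 of 4 lines. CCNA2, the A-type cyclin of S phase and G2, stood at 17.6, 42.2, 15.5 and 29.7 FPKM in sgPOU2F3 cells, against 22.3, 59.7, 26.3 and 42.6 FPKM in sgNeg cells. Ratios lay between -0.73 in NCI-H211 and -0.33 in COR-L311, and their mean was -0.51 ± 0.16 (SD over 4 lines, limma adjusted p = 0.34). CDK1, the kinase that drives entry, stood at 74.7, 61.8, 59.05 and 52.7 FPKM in sgPOU2F3 cells, against 99.3, 68.03, 155 and 77.8 FPKM in sgNeg cells. Its mean of -0.62 ± 0.54 (SD over 4 lines, limma adjusted p = 0.40) rested most on NCI-H211, where the ratio was -1.38, beside -0.14 in NCI-H1048, and was -0.36 without NCI-H211. CCNB1, the main B-type cyclin, stood at 41.4, 111, 25.5 and 53.8 FPKM in sgPOU2F3 cells, against 58.4, 129, 52.01 and 85.4 FPKM in sgNeg cells. It was lower in 4 of 4 lines, with a mean of -0.59 ± 0.33 (SD over 4 lines, limma adjusted p = 0.39), and its relative CCNB2 had one of -0.56 ± 0.32.

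PLK1, the Polo-like kinase of centrosomes and kinetochores, stood at 39.4, 37.5, 26.2 and 60.6 FPKM in sgPOU2F3 cells, against 86.2, 41.5, 50.4 and 93.9 FPKM in sgNeg cells. Its lowest ratio was in COR-L311, -1.11, and its mean was -0.70 ± 0.42 (SD over 4 lines, limma adjusted p = 0.39). The phosphatase gene CDC25C, which removes inhibitory phosphates from CDK1, stood at 4.24, 12.2, 5.71 and 9.28 FPKM in sgPOU2F3 cells, against 6.07, 12.8, 14.95 and 10.5 FPKM in sgNeg cells. It was at least 2-fold lower in NCI-H211 and differed little in NCI-H1048 (-0.06), for a mean of -0.48 ± 0.54 (SD over 4 lines, limma adjusted p = 0.45) that was -0.22 without NCI-H211. CDCA3, which promotes mitotic entry, had a mean of -0.54 ± 0.28. The sister phosphatase CDC25B went apart from the rest, at 337, 63.9, 36.9 and 153 FPKM in sgPOU2F3 cells, against 352, 43.8, 54.1 and 155 FPKM in sgNeg cells. It was higher in NCI-H1048 (0.53), lower in NCI-H211 (-0.54) and near 0 in COR-L311 and NCI-H526, so that its mean was -0.02 ± 0.44 (SD over 4 lines, limma adjusted p = 0.97). Without 1 line that mean lay between -0.21 without NCI-H1048 and 0.15 without NCI-H211.

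All 6 genes of the Aurora kinases and the chromosomal passenger complex were lower in 4 of 4 lines, and their median ratio was -0.57. AURKA, the kinase of centrosomes and spindle poles, stood at 44.4, 20.02, 19.6 and 46.3 FPKM in sgPOU2F3 cells, against 76.8, 28.02, 39.2 and 63.5 FPKM in sgNeg cells. Every line had a lower level in sgPOU2F3 cells, and the mean of -0.66 ± 0.25 (SD over 4 lines, limma adjusted p = 0.31) carried the smallest p of the 40. TPX2, which activates AURKA on the spindle, had a mean of -0.41 ± 0.19. AURKB, the kinase of the passenger complex, stood at 50.3, 42.7, 21.3 and 57.6 FPKM in sgPOU2F3 cells, against 112, 55.6, 48.3 and 79.8 FPKM in sgNeg cells. It was more than 2-fold lower in COR-L311 and NCI-H211 and less so in the other lines, with a mean of -0.78 ± 0.42 (SD over 4 lines, limma adjusted p = 0.37).

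BIRC5, or survivin, the subunit that brings the passenger complex to centromeres, stood at 54.2, 85.5, 45.7 and 58.03 FPKM in sgPOU2F3 cells, against 103, 90.98, 108 and 84.8 FPKM in sgNeg cells. NCI-H211 had the lowest ratio (-1.22) and NCI-H1048 one near 0 (-0.09), for a mean of -0.69 ± 0.49 (SD over 4 lines, limma adjusted p = 0.39). The scaffold INCENP had a mean of -0.46 ± 0.24 and CDCA8, or borealin, one of -0.48 ± 0.28. In COR-L311 the ratios of the 4 passenger genes AURKB, INCENP, BIRC5 and CDCA8 were -1.14, -0.71, -0.91 and -0.88, all below that line's median over the 40 genes. Ratios in that line moved with transcript length, as described below. The longest coding transcripts of these genes have 1254, 3964, 2711 and 2469 bases, against a median of 3037.5 over the 40 genes.

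**Figure D3:**
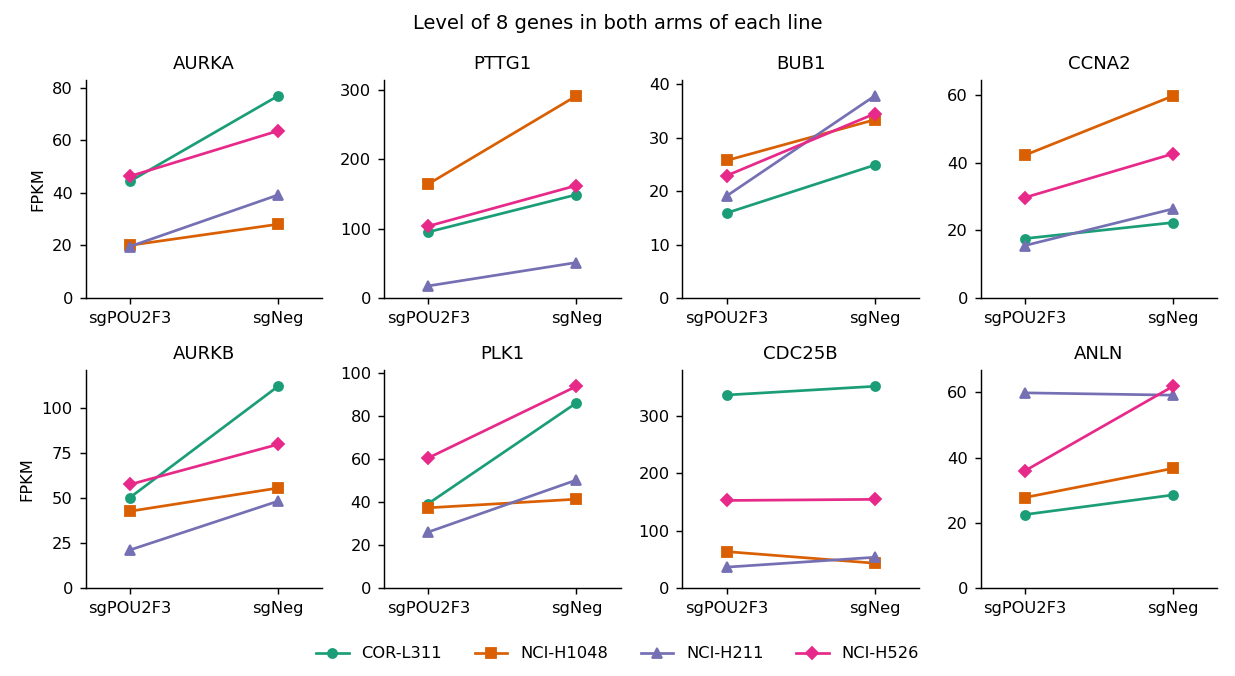
FPKM on the vertical axis, from 0, in sgPOU2F3 and sgNeg cells for 8 genes, with 1 joined pair of points per line and 1 deposited value per point. The lines slope upward to sgNeg for AURKA, PTTG1, BUB1, CCNA2, AURKB and PLK1 in all 4 lines, while CDC25B slopes the other way in NCI-H1048 and ANLN is nearly level in NCI-H211.

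Among the 5 spindle checkpoint genes (median ratio -0.57), 4 were lower in 4 of 4 lines. BUB1, the kinase that recruits checkpoint proteins to kinetochores, stood at 15.9, 25.7, 19.1 and 22.9 FPKM in sgPOU2F3 cells, against 24.9, 33.4, 37.8 and 34.5 FPKM in sgNeg cells. It was lower in each line, with a mean of -0.62 ± 0.24 (SD over 4 lines, limma adjusted p = 0.34). BUB1B, or BubR1, a subunit of the complex that inhibits CDC20, stood at 26.3, 37.2, 17.1 and 39.2 FPKM in sgPOU2F3 cells, against 35.8, 46.8, 37.4 and 53.5 FPKM in sgNeg cells. NCI-H211 stood apart (-1.09) from the other lines (-0.44 to -0.33), and the mean was -0.57 ± 0.35 (SD over 4 lines, limma adjusted p = 0.39). MAD2L1, the checkpoint protein Mad2, stood at 51.5, 80.4, 37.7 and 75.3 FPKM in sgPOU2F3 cells, against 62.5, 98.3, 85.01 and 112 FPKM in sgNeg cells. Its mean was -0.57 ± 0.41 (SD over 4 lines, limma adjusted p = 0.40), again with the lowest ratio in NCI-H211 (-1.15), and it was -0.38 without that line. The checkpoint kinase TTK had a mean of -0.43 ± 0.29. BUB3, the partner of both BUB proteins, had one of -0.30 ± 0.35 and was slightly higher in COR-L311 (0.11); without NCI-H211 its mean was -0.15.

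The 3 genes of anaphase had a median ratio of -0.59. PTTG1, or securin, which holds separase inactive until anaphase, stood at 94.99, 164, 17.3 and 103 FPKM in sgPOU2F3 cells, against 149, 291, 51.01 and 162 FPKM in sgNeg cells. It had the lowest mean of the 40, -0.90 ± 0.41 (SD over 4 lines, limma adjusted p = 0.31), and was the only one of them at least 1.5-fold lower in NCI-H1048 (-0.82). CDC20, the activator of the anaphase-promoting complex, stood at 42.5, 89.2, 22.3 and 103 FPKM in sgPOU2F3 cells, against 94.2, 92.1, 33.9 and 155 FPKM in sgNeg cells. Its lowest ratio was in COR-L311 (-1.13) and its ratio in NCI-H1048 was near 0, for a mean of -0.59 ± 0.44 (SD over 4 lines, limma adjusted p = 0.40). UBE2C, the ubiquitin-conjugating enzyme of the complex, stood at 202, 209, 78.2 and 199 FPKM in sgPOU2F3 cells, against 337, 205, 161 and 299 FPKM in sgNeg cells. It was lower in 3 of 4 lines and level in NCI-H1048 (0.02), with a mean of -0.58 ± 0.44 (SD over 4 lines, limma adjusted p = 0.40).

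Of the 5 centromere and kinetochore genes (median ratio -0.49), 4 were lower in 4 of 4 lines. CENPA, the histone H3 variant that marks centromeres, stood at 24.8, 30.4, 21.4 and 21.7 FPKM in sgPOU2F3 cells, against 33.8, 37.8, 40.2 and 31.8 FPKM in sgNeg cells. Its arms did not overlap across lines, and its mean was -0.54 ± 0.25 (SD over 4 lines, limma adjusted p = 0.38). NUF2 and NDC80 form the part of the NDC80 complex that binds microtubules. NUF2 stood at 29.2, 58.2, 6.30 and 36.1 FPKM in sgPOU2F3 cells, against 46.1, 68.3, 15.1 and 57.1 FPKM in sgNeg cells, with a mean of -0.67 ± 0.38 (SD over 4 lines, limma adjusted p = 0.38). NDC80 stood at 21.5, 20.4, 11.1 and 14.6 FPKM in sgPOU2F3 cells, against 25.9, 27.7, 23.8 and 17.3 FPKM in sgNeg cells, with a mean of -0.49 ± 0.37 (SD over 4 lines, limma adjusted p = 0.40). Both were lower in every line, most in NCI-H211, without which the mean of NDC80 was -0.31. CENPF, a large protein of the outer kinetochore, stood at 49.4, 138, 38.01 and 31.4 FPKM in sgPOU2F3 cells, against 48.04, 156, 88.2 and 43.96 FPKM in sgNeg cells. It was more than 2-fold lower in NCI-H211 and level in COR-L311 (0.04), for a mean of -0.45 ± 0.54 (SD over 4 lines, limma adjusted p = 0.45) that was -0.20 without NCI-H211. The kinetochore kinesin CENPE had a mean of -0.33 ± 0.31 (-0.19 without NCI-H211) and a ratio of -0.01 in COR-L311.

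All 5 kinesin genes were lower in 4 of 4 lines (median ratio -0.44). KIF2C, a kinesin that shortens microtubules at centromeres, stood at 21.8, 28.2, 18.8 and 54.4 FPKM in sgPOU2F3 cells, against 42.4, 34.02, 39.8 and 73.2 FPKM in sgNeg cells. It had a mean of -0.66 ± 0.38 (SD over 4 lines, limma adjusted p = 0.39), with the lowest ratios in NCI-H211 and COR-L311. KIF20A, which carries the passenger complex to the spindle midzone, stood at 8.38, 29.05, 13.3 and 27.9 FPKM in sgPOU2F3 cells, against 13.3, 33.5, 30.9 and 43.4 FPKM in sgNeg cells. Its mean was -0.65 ± 0.39 (SD over 4 lines, limma adjusted p = 0.39), and NCI-H211 had the lowest ratio (-1.15). KIF11, which pushes the spindle poles apart, had a mean of -0.43 ± 0.27, the chromosome motor KIF4A one of -0.44 ± 0.24 and KIF23, a motor of cytokinesis, one of -0.35 ± 0.18. KIF23 was among the few whose ratio in NCI-H211 (-0.20) was not the lowest of the 4 lines.

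Among the 6 genes of spindle and midzone proteins and anillin (median ratio -0.47), 4 were lower in 4 of 4 lines. PRC1, which bundles the microtubules of the midzone, stood at 64.9, 112, 42.8 and 76.4 FPKM in sgPOU2F3 cells, against 88.6, 127, 77.8 and 97.4 FPKM in sgNeg cells. It was lower in each line, with a mean of -0.45 ± 0.29 (SD over 4 lines, limma adjusted p = 0.39). HMMR, a spindle pole adaptor, stood at 19.3, 23.3, 5.95 and 13.3 FPKM in sgPOU2F3 cells, against 20.9, 34.3, 16.3 and 20.6 FPKM in sgNeg cells. The mean was -0.64 ± 0.50 (SD over 4 lines, limma adjusted p = 0.40), with ratios of -1.32 in NCI-H211 and -0.10 in COR-L311. NUSAP1, a microtubule-bundling protein near chromosomes, stood at 82.04, 119, 21.2 and 97.3 FPKM in sgPOU2F3 cells, against 100.3, 130.2, 49.4 and 121 FPKM in sgNeg cells, with a mean of -0.48 ± 0.48 (SD over 4 lines, limma adjusted p = 0.42). DLGAP5, which stabilises kinetochore microtubules, stood at 12.8, 20.2, 14.3 and 19.5 FPKM in sgPOU2F3 cells, against 14.3, 26.5, 33.8 and 27.4 FPKM in sgNeg cells, with a mean of -0.54 ± 0.45 (SD over 4 lines, limma adjusted p = 0.40). Both were more than 2-fold lower in NCI-H211 alone. Without that line the means were -0.41 for HMMR, -0.24 for NUSAP1 and -0.33 for DLGAP5. ASPM, a spindle pole protein, had a mean of -0.34 ± 0.41 and was slightly higher in COR-L311 (0.18), so that its mean was -0.52 without COR-L311 and -0.18 without NCI-H211.

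ANLN, the anillin scaffold of the contractile ring, was the exception in NCI-H211. It stood at 22.6, 27.8, 59.8 and 35.9 FPKM in sgPOU2F3 cells, against 28.6, 36.7, 59.1 and 61.8 FPKM in sgNeg cells. It was lower in NCI-H526 (-0.77), COR-L311 and NCI-H1048 and level in NCI-H211 (0.02), for a mean of -0.37 ± 0.32 (SD over 4 lines, limma adjusted p = 0.41) that was -0.23 without NCI-H526. No other of the 40 genes was above 0 in NCI-H211.

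The chromosome proteins TOP2A and MKI67 were both lower in 4 of 4 lines. TOP2A, the topoisomerase that untangles sister chromatids, stood at 88.5, 85.99, 91.1 and 126 FPKM in sgPOU2F3 cells, against 100.1, 95.6, 189.5 and 165 FPKM in sgNeg cells, with a mean of -0.44 ± 0.42 (SD over 4 lines, limma adjusted p = 0.41). MKI67, which coats mitotic chromosomes and is used as a marker of cycling cells, stood at 34.8, 61.8, 17.4 and 56.2 FPKM in sgPOU2F3 cells, against 41.99, 77.7, 28.999 and 71.1 FPKM in sgNeg cells, with a mean of -0.41 ± 0.20 (SD over 4 lines, limma adjusted p = 0.39). Both were lowest relative to the control in NCI-H211 (-1.05 and -0.71), and without that line the mean of TOP2A was -0.24.

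In COR-L311 the ratios moved with transcript length. Across the 40 genes, the Spearman correlation of the ratio with the longest coding transcript (GENCODE, GRCh38, a different build from the hg19 of the tables) was 0.61 in COR-L311, against 0.38 in NCI-H526, 0.36 in NCI-H211 and -0.11 in NCI-H1048. Over 12079 tested genes with a length it was 0.32 in COR-L311, 0.05 in NCI-H526, 0.11 in NCI-H211 and -0.13 in NCI-H1048. These are descriptions across genes of the same libraries. In COR-L311 the 20 longer genes had a median ratio of -0.30 and the 20 others one of -0.64. The 3 genes above 0 there, ASPM, CENPF and BUB3, have longest coding transcripts of 10887, 10307 and 7828 bases. The genes just below 0 were CENPE (-0.01) at 8612 bases, CDC25B (-0.06) at 3597 bases and HMMR (-0.10) at 3102 bases. Each is among the 20 longer genes, above the median length of 3037.5 bases. The next gene, DLGAP5 (-0.14), has 2973 bases and is among the 20 others. After the ratios of each line were corrected for length over all genes, a setting chosen after seeing the data, the median ratio of the 40 was -0.94 in NCI-H211, -0.46 in NCI-H526, -0.44 in COR-L311 and -0.24 in NCI-H1048, and 39 of the 40 were lower in 4 of 4 lines, against 14.6% of the genes with a length. What the relation with length comes from was not tested.

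Whether the difference was larger in the lines harvested on day 4 (NCI-H1048 and NCI-H211) or on day 5 (COR-L311 and NCI-H526) was tested with limma on the ratios. None of the 40 genes passed (adjusted p of at least 0.83 by limma, with 2 lines for each day), none had an unadjusted p under 0.05, and of all tested genes 5.51% had such a p and 0% passed. The median difference, day 4 minus day 5, was -0.11, beside a median close to 0 for all genes, and 26 of the 40 had the lower mean ratio on day 4. The 2 lines of day 4 were themselves the lines with the lowest and the highest median ratio.

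Other genes of the cell cycle were described by the same fit. None of them passed the threshold in the 8 lists. Of all tested genes, 12.9% were lower and 9.81% higher in 4 of 4 lines, and 7.08% were lower at an unadjusted p under 0.05. Of 12 other kinesin and cytokinesis genes, 9 were lower in 4 of 4 lines and 9 lower at an unadjusted p under 0.05, with a median ratio of -0.40. ECT2, which activates RhoA at the division site, had a mean of -0.39 ± 0.11 (SD over 4 lines, limma adjusted p = 0.39). Of 14 centrosome genes, 11 were lower in 4 of 4 lines (median -0.27). TACC3 had the smallest p of them, with a mean of -0.46 ± 0.28 (SD over 4 lines, limma adjusted p = 0.39). The centrosomal kinase NEK2 had a mean of -0.63 ± 0.52 (SD over 4 lines, limma adjusted p = 0.40) that was -0.38 without NCI-H211. Of 20 tested condensin and cohesin genes, 9 were lower in 4 of 4 lines (median -0.21), with the condensin subunit NCAPH at -0.52 ± 0.17 (SD over 4 lines, limma adjusted p = 0.37). Of 28 other kinetochore genes, 11 were lower in 4 of 4 lines (median -0.20), with HJURP, the chaperone that loads CENPA, at -0.48 ± 0.21 (SD over 4 lines, limma adjusted p = 0.38).

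Of 19 subunits and inhibitors of the anaphase-promoting complex, 6 were lower in 4 of 4 lines (median -0.13), against 12.9% of all tested genes. Among them UBE2S, which extends the ubiquitin chains that UBE2C starts, had a mean of -0.64 ± 0.38 (SD over 4 lines, limma adjusted p = 0.39). Of the 19 regulators of G2 and M phase transcription, 5 were lower and 1 higher in 4 of 4 lines (median -0.16), against 12.9% and 9.81% of all tested genes. FOXM1, the factor that acts at promoters of the kind printed above, stood at 21.3, 95.1, 35.4 and 72.3 FPKM in sgPOU2F3 cells, against 31.96, 102, 62.1 and 94.6 FPKM in sgNeg cells. It was lower in 4 of 4 lines, with a mean of -0.46 ± 0.29 (SD over 4 lines, limma adjusted p = 0.39), and MYBL2, which encodes B-MYB, had a mean of -0.26 ± 0.19 (SD over 4 lines, limma adjusted p = 0.42) that was -0.16 without COR-L311.

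The 32 DNA replication genes had a median ratio of -0.11, beside -0.52 for the 40 mitosis genes. Of these, 4 were lower in 4 of 4 lines, a share like the 12.9% of all tested genes. At an unadjusted p under 0.05 there was 1, against 7.08% of all tested genes. This was MCM10, which acts in the start of replication, with a mean of -0.31 ± 0.04 (SD over 4 lines, limma adjusted p = 0.40). By line their medians were -0.18, -0.01, -0.38 and 0.08, beside -0.44, -0.22, -0.96 and -0.44 for the mitosis genes. The difference between the lists was not tested. Of 14 tested CDK inhibitors, RB and G1 cyclin genes, 3 were lower and 1 higher in 4 of 4 lines (median -0.03), against 12.9% and 9.81% of all tested genes. The lower ones were CDKN3, CDKN2D and CDK2. CDKN3, a phosphatase gene that itself peaks in mitosis, had a mean of -0.63 ± 0.17 (SD over 4 lines, limma adjusted p = 0.31). The CDK inhibitor gene CDKN2D had one of -0.62 ± 0.47 (SD over 4 lines, limma adjusted p = 0.40), or -0.40 without NCI-H211. CDK2 had one of -0.20 ± 0.22 (SD over 4 lines, limma adjusted p = 0.53), or -0.09 without NCI-H211. The higher one was CDKN1A, which encodes the CDK inhibitor p21. CDKN1A stood at 22.4, 59.9, 7.31 and 155 FPKM in sgPOU2F3 cells, against 2.73, 54.5, 4.25 and 74.3 FPKM in sgNeg cells. It was higher in every line, most in COR-L311, and its mean was 1.13 ± 1.085 (SD over 4 lines, limma adjusted p = 0.40), or 0.62 without that line.

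**Figure D4:**
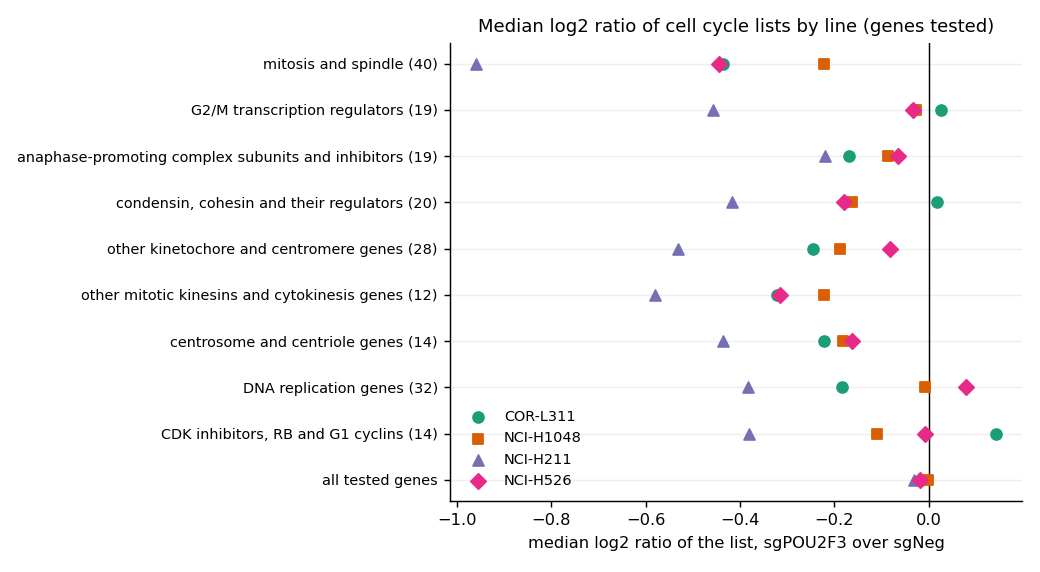
Median log2 ratio, sgPOU2F3 over sgNeg, on the horizontal axis for the mitosis genes, 8 other cell cycle lists and all tested genes on the vertical axis, with the number of genes tested in brackets and 1 symbol per line. The mitosis genes run from -0.96 in NCI-H211 to -0.22 in NCI-H1048, and all tested genes lie close to 0 in each line.

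The parental comparison asked whether the 4 lines that express POU2F3 differ from the 10 others in these genes before any knockout. None of the 40 genes passed the threshold (adjusted p 0.52 to 0.999 by limma), against 0.25% of the 13226 genes tested, and 2 had an unadjusted p under 0.05, against 8.66%. The median difference was -0.01 on the log2 scale, beside a median close to 0 for all tested genes, with 19 genes higher and 21 lower in the knockout lines. For all 40 genes the levels of the groups overlapped, while the 4 lines lay above all others in 0.401% and below all others in 0.25% of tested genes.

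The genes with the smallest p were ANLN and BUB3. ANLN stood at 40.9, 61.4, 57.1 and 41.3 FPKM in the 4 knockout lines, against 11.7 at the lowest, 27.2 at the median and 63.2 FPKM at the highest of the 10 other lines. All 4 lines lay above the median of the others and within their range, and the difference was 0.87 (SE 0.37, adjusted p = 0.52 by limma, n = 4 and 10 lines). BUB3 stood at 268, 234, 78.995 and 209.98 FPKM in the 4 knockout lines, against 57.8 at the lowest, 100.05 at the median and 176 FPKM at the highest of the 10 other lines. It was above all 10 others in COR-L311, NCI-H1048 and NCI-H526 and among them in NCI-H211, for a difference of 0.76 (SE 0.33, adjusted p = 0.53 by limma, n = 4 and 10 lines) that was 1.15 without NCI-H211.

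The next by p had lower means in the knockout lines. DLGAP5 stood at 22.2, 32.3, 44.7 and 18.1 FPKM in the 4 knockout lines, against 20.7 at the lowest, 38.8 at the median and 61.6 FPKM at the highest of the 10 other lines, a difference of -0.49 (SE 0.31, adjusted p = 0.72 by limma, n = 4 and 10 lines). NUSAP1 stood at 97.8, 131, 54.8 and 73.98 FPKM in the 4 knockout lines, against 78.6 at the lowest, 103 at the median and 198 FPKM at the highest of the 10 other lines, a difference of -0.40 (SE 0.28, adjusted p = 0.75 by limma, n = 4 and 10 lines). In both genes 3 of the 4 knockout lines lay below the median of the others. CCNB1 stood at 59.9, 161, 65.3 and 56.05 FPKM in the 4 knockout lines, against 53.1 at the lowest, 109.8 at the median and 159.9 FPKM at the highest of the 10 other lines, a difference of -0.44 (SE 0.34, adjusted p = 0.78 by limma, n = 4 and 10 lines). NDC80 stood at 38.9, 48.2, 30.6 and 24.2 FPKM in the 4 knockout lines, against 18.3 at the lowest, 43.8 at the median and 83.9 FPKM at the highest of the 10 other lines, a difference of -0.39 (SE 0.33, adjusted p = 0.81 by limma, n = 4 and 10 lines). NCI-H1048 had the highest CCNB1 level of all 14 lines, and the other 3 knockout lines lay below 9 of the 10 others. With 1 knockout line left out, the difference ran from -0.71 to -0.29 for DLGAP5 (without NCI-H211 and without NCI-H526), from -0.61 to -0.19 for NUSAP1 (without NCI-H1048 and without NCI-H211), from -0.79 to -0.29 for CCNB1 and from -0.55 to -0.23 for NDC80 (without NCI-H1048 and without NCI-H526, both genes).

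Levels differed widely among the parental lines. The summed level of the 40 genes ran from 1624.5 FPKM in NCI-H889 and 1738 FPKM in NCI-H524 to 3414 FPKM in NCI-H446 and 3633 FPKM in NCI-H128. Each gene was scaled over the 14 lines, and the median scaled level (in SD units) was lowest in NCI-H889 (-1.35) and NCI-H524 (-1.06) and highest in NCI-H128 (0.73), NCI-H1048 (0.72) and NCI-H446 (0.67). NCI-H889 had the lowest level of 16 genes and NCI-H524 that of 12, while DMS114 had the highest level of 8, NCI-H128 of 7 and NCI-H1048 of 6. The knockout lines were spread over this order: NCI-H526 (-0.46), NCI-H211 (-0.30) and COR-L311 (-0.18) lay in its lower part and NCI-H1048 near its top. With 1 library per line, neighbours in this order cannot be separated.

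**Figure D5:**
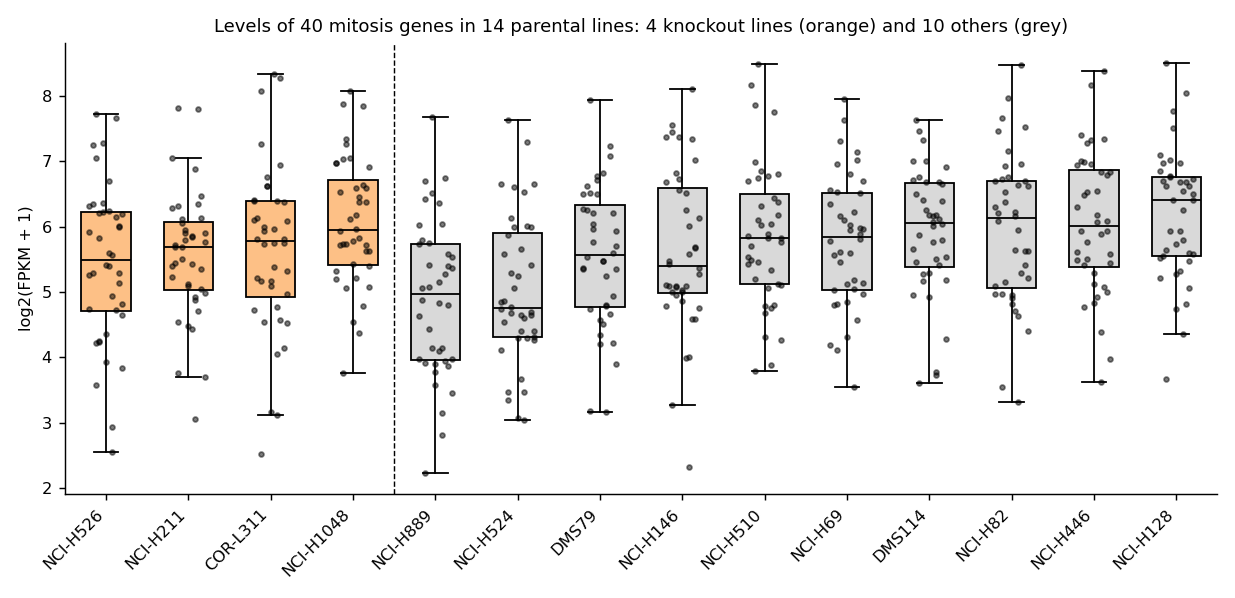
Log2(FPKM + 1) of the 40 genes on the vertical axis in each of 14 parental lines, the 4 knockout lines at the left of the dashed line and the 10 others at its right, each ordered by the median scaled level; points are genes, boxes span the quartiles with the median, and whiskers reach the farthest point within 1.5 times the box. The boxes of the knockout lines lie within the span of the others, of which NCI-H889 and NCI-H524 are the lowest.

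CDC25B, AURKB, CDCA8, ASPM and CDC25C had the widest range across the 14 lines. CDC25B stood between 20.2 FPKM in NCI-H524 and 323 FPKM in COR-L311, with a median of 91.4. AURKB stood between 16.6 FPKM in NCI-H889 and 249 FPKM in NCI-H82, with a median of 78.2. CDCA8 stood between 26.2 FPKM in NCI-H524 and 357 FPKM in NCI-H510, with a median of 58.6. ASPM stood between 6.63 FPKM in NCI-H526 and 75.1 FPKM in NCI-H128, with a median of 21.9, and CDC25C between 3.70 FPKM in NCI-H889 and 41.8 FPKM in NCI-H446, with a median of 11.1. The narrowest range belonged to PRC1, between 52.2 FPKM in NCI-H889 and 124 FPKM in NCI-H1048, followed by BUB1B, between 27.5 and 71.5 FPKM in the same lines, and CENPA, between 16.3 FPKM in NCI-H524 and 45.2 FPKM in NCI-H510. CDC25B, the gene that went apart after knockout, also had the widest parental range, 3.934 on the log2 scale, close to 3.825 for AURKB. A range rests on the lowest and the highest line alone, and a link with the knockout result was not tested.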

How the data were processed

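RNA-seq libraries from 26 samples of human small cell lung cancer lines were used as 5 tables deposited by the authors. Values are FPKM per the file headers (the labels call the parental table RPKM). The submitters' processing notes name TopHat2, Cufflinks, Cuffdiff and hg19; versions, annotation and scaling are not given in the sources used here. Libraries were polyA-selected, per the labels' protocols.

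Values were taken as log2(FPKM + 1), a scale that understates changes of low genes, and a gene was tested if 4 or more of the 8 knockout columns, or of the 14 parental columns, reached an FPKM of 1. The variance trend option of limma 3.58.1 (R 4.3.3) was used, and the model was fitted to the whole table with line and arm as terms (3 residual degrees of freedom), to the ratios by harvest day, and to 4 against 10 parental lines. P-values are two-sided and Benjamini-Hochberg adjusted over all tested genes, with a threshold of 0.05. The line is the replicate; separate cultures within a line are not given by the labels. The plan allowed for single guides, but the deposited columns combine them. Within a line, genes were counted at 1.5-fold and 2-fold without a test.

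The genes and lists were chosen with earlier results of these data known. Per-line values are given for the 2 genes with the smallest p in each role and those at 2-fold in any line. CDC25B and ANLN were added after their values were seen. For parental lines, values are given for the 6 with the smallest p and the 5 widest and 3 narrowest ranges. From other lists, genes were named out of the 3 with the smallest p, not always in that order. CDK2 was named beyond these for being lower in 4 of 4 lines. Depth was estimated from the smallest FPKM steps of genes with 1 annotated transcript. Alternatives were pseudocount, filter, scaling, trend, block, and each line left out. The functions were tested on simulated data.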

Additional observations from a re-analysis of the deposited data

Results flagged for a closer look

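In each group of lines, a value was picked out where its gap to the nearest other line was large relative to the range of the group (Dixon's 95% limit). Over 120 groups checked, 10 values were picked out, and chance picks about 1 in 20. In the knockout comparison the lowest log2 ratio was in NCI-H211 for BUB1B (-1.09, nearest -0.44 in NCI-H526), TTK (-0.86, nearest -0.34 in NCI-H1048) and MKI67 (-0.71, nearest -0.33 in NCI-H526).

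Among the 4 knockout lines of the parental table, NCI-H1048 had the highest CCNA2 (86.8 FPKM, nearest 29.8 FPKM in NCI-H526) and CCNB1 (161 FPKM, nearest 65.3 FPKM in NCI-H211). COR-L311 had the lowest CDC25C (4.74 FPKM, nearest 10.96 FPKM in NCI-H526) and the highest INCENP (67.6 FPKM, nearest 39.1 FPKM in NCI-H1048). NCI-H526 had the highest CDCA8 (72.7 FPKM, nearest 52.4 FPKM in NCI-H1048). Among the 10 other lines, NCI-H524 had the lowest CDC25B (20.2 FPKM, nearest 48.8 FPKM in NCI-H82) and DMS79 the lowest BIRC5 (36.8 FPKM, nearest 63.2 FPKM in NCI-H146).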

How the results depend on the processing

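The absence of a call held under each alternative run: no gene of the 40 passed the threshold after knockout, between harvest days or between parental groups with a pseudocount of 0.1, no filter, a filter at an FPKM of 5, quantile normalization or no trend, with columns scaled to the same median (not run for the harvest day), or, after knockout and between parental groups, without any 1 of the 4 knockout lines. In the main fit after knockout, 0% of all tested genes passed as lower, and POU2F3 itself had an adjusted p of 0.40 by limma. The unchanged absence of a call after knockout therefore says little. After knockout the median log2 ratio of the 40 ran from -0.61 without NCI-H1048 to -0.41 without NCI-H211, and was -0.48 with quantile normalization. The count lower in every remaining line was 34 to 37 with 1 line left out, against 17.2 to 21.3% of all tested genes, and the count lower at an unadjusted p under 0.05 was 28 to 35, against 4.33 to 6.93%. With arm as the only term, without the line block (no replicate block), 3 genes in place of 34 were lower at an unadjusted p under 0.05, against 0.178% of all tested genes. The guide numbers are not carried by the deposited columns, so no block by guide was possible. CDC25B turned to 0.079 with quantile normalization and ran from -0.21 to 0.15 with 1 line left out, none of them past the threshold; the cause was not tested. With quantile normalization 2 genes in place of 9 were at least 1.5-fold lower in NCI-H526, beside 3.13% of all genes. In the parental comparison, with 1 knockout line left out, 1 gene in place of 2 had an unadjusted p under 0.05, against 6.78 to 7.98% of all tested genes. In that setting 0 to 1 gene had groups that did not overlap: BUB3 lay above all 10 others without NCI-H211, as did 0.89% of all tested genes. Low depth limits CDC25C most.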

Other observations

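Beside CDKN1A, 3 other CDK inhibitor and G1 cyclin genes, named after their values were seen, went different ways in different lines. CDKN1C, which encodes the CDK inhibitor p57, stood at 239, 38.8, 1.41 and 638 FPKM in sgPOU2F3 cells, against 45.97, 24.9, 7.36 and 95.1 FPKM in sgNeg cells in COR-L311 and NCI-H1048, then NCI-H211 and NCI-H526, and was lower only in NCI-H211 of the 4 lines. CDKN2B, which encodes the CDK inhibitor p15, stood at 3.29, 3.18, 15.5 and 4.63 FPKM in sgPOU2F3 cells, against 1.42, 1.82, 0.525 and 5.24 FPKM in sgNeg cells in the same order, and its highest ratio was in NCI-H211. CCND1, or cyclin D1, stood at 5.10, 7.66, 325 and 19.3 FPKM in sgPOU2F3 cells, against 8.73, 10.2, 166 and 29.3 FPKM in sgNeg cells in the same order, and was higher only in NCI-H211 of the 4 lines. None of these 3 genes passed the threshold.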
